A study of Mus musculus with 4 samples.

Results

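The 6 genes Agrp, Npy, Pomc, Cartpt, Mc3r and Mc4r are the peptides of the arcuate feeding circuit and the receptors through which melanocortins act in the brain. They were read by symbol from the row names of the plate count tables, which hold 35963 genes outside spike-ins and mitochondrial genes, and all 6 were found. Single cells were sorted from the hypothalamus of C57BL/6 mice carrying Lepr-cre and Rosa-LSL-tdTomato, alleles that every group shared, 1 cell to a well of a 384-well plate. In the fed group there were 3 plates, and the other group was 1 plate from animals fasted for 24 h. The red reporter is switched on by Cre from the leptin receptor locus and stays on, so it marks cells with past as well as present Lepr promoter activity. Sex, age and the number of animals behind each plate are not given in the labels. The labels do not tie plates to animals, so all p-values measure only the spread between plates. Lists of 4 values below follow the order fed plate 1, fed plate 2, fed plate 3, fasted plate.

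In the arcuate nucleus, neurons that make Agrp and Npy drive feeding, and neurons that make Pomc restrain it. Pomc is cut into several peptides, among them alpha-MSH, which activates the melanocortin receptors Mc3r and Mc4r, while AgRP blocks the same receptors. NPY is a transmitter that acts on its own family of receptors, and Cartpt encodes the CART peptides, which in rodents lower food intake when given into the brain. Leptin lowers Agrp and Npy and raises Pomc in rodents, and fasting is known to do the reverse.

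Of 1536 wells, 1279 were kept, each with at least 1000 transcripts and a mitochondrial share under 30%, and they gave 4402407 to 5535041 transcripts per plate. AgRP-like neurons, named from Acvr1c, Corin, Ghsr, Calcr, Ghr, Crhr1 and Cited1 after a clustering from which the 6 genes were left out, numbered 83, 59, 29 and 23. All 7 markers were detected in them on each plate, at a summed 2311, 2546, 2350 and 3587 transcripts per 1000000 (CPM), against 357 to 609 CPM in other neurons and 216 to 275 CPM in non-neuronal cells. A further 195 neurons, 820 non-neuronal cells and 70 unnamed cells made up the rest. The plates stood apart from each other in several ways. Most AgRP-like cells of fed plate 1 (80 of 83) formed cluster 4, those of fed plates 2 and 3 (59 of 59 and 25 of 29) cluster 3, and the 23 fasted ones cluster 20. Median depth in AgRP-like cells was 25974, 30430, 33122 and 65448 transcripts. Xist without any Y-linked transcript was found in 6.74, 51.6, 42.0 and 84.4% of kept cells. All 384 well barcodes were shared by the 4 plates.

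Agrp and Npy were concentrated in the AgRP-like neurons, Agrp far more tightly than Npy. Agrp lies on chromosome 8 at 105566698 to 105637393 of GRCm38, on the minus strand (ENSMUSG00000005705). Of its 3 annotated transcripts, Agrp-201 has 5 exons and ends at 105568298, while Agrp-202 reaches the far end of the interval. Of several annotated genes that overlap Agrp, the antisense Gm38250 had 6, 15, 8 and 27 transcripts in AgRP-like neurons. Gm5914, on the same strand as Agrp, had 15, 14, 7 and 33, against 1244 to 4109 of Agrp itself. Npy lies on chromosome 6 at 49822710 to 49829507, on the plus strand, with 4 exons (ENSMUSG00000029819).

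In AgRP-like neurons Agrp stood at 1147, 1477, 1286 and 2532 CPM. In the remaining neurons the levels were 27.3, 24.2, 31.7 and 47.9 CPM in the same order. Non-neuronal cells held 27.5, 39.6, 37.6 and 52.6 CPM, so the lowest AgRP-like plate lay far above every plate of the other 2 groups. Pooled over plates, the second highest class was pericyte or smooth muscle-like cells at 60.8 CPM, from 10 transcripts with an exact Poisson interval of 29.2 to 112. The counting intervals of that class and of the other non-neuronal classes overlapped. Of all Agrp transcripts, counting wells that were left out too, 94.9% were in AgRP-like neurons.

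Npy in the same cells reached 6585, 8147, 6008 and 10216 CPM. Elsewhere it was not low: 954, 853, 509 and 1184 CPM in other neurons and 1065, 1085, 801 and 1377 CPM in non-neuronal cells. Every AgRP-like plate was above every other value, while neurons other than AgRP-like and non-neuronal cells overlapped. AgRP-like cells held 78.5% of all Npy transcripts, non-neuronal cells 12.4% and other neurons 6.93%. Outside AgRP-like neurons the classes ran from 752 CPM in oligodendrocyte precursor-like cells to 1393 CPM, a narrow band compared with the gap to AgRP-like neurons.

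**Figure D1:**
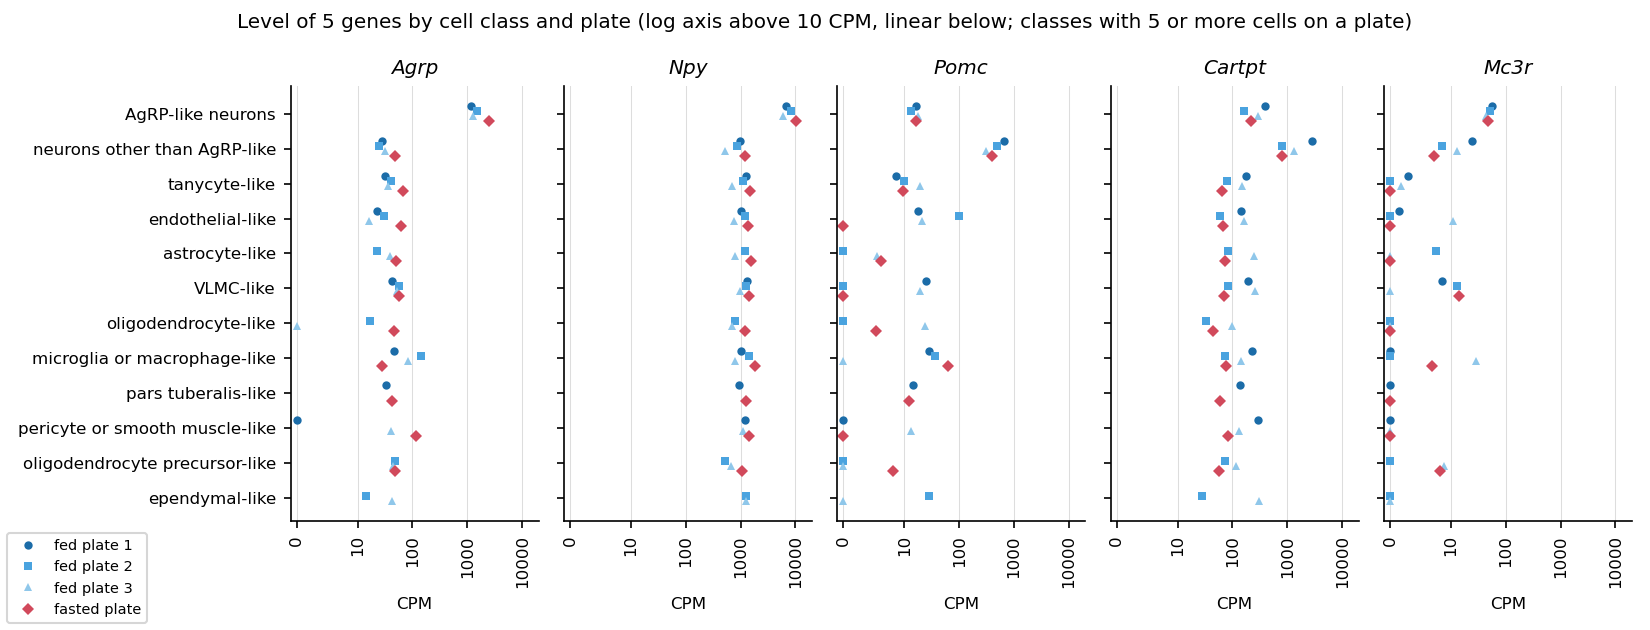
Level of 5 of the 6 genes in CPM (log axis above 10, linear below) by cell class, 1 point per plate, for classes with at least 5 cells on that plate. Agrp and Npy are highest in AgRP-like neurons on every plate, Npy is at 509 CPM or above in every other class, Pomc and Cartpt are highest in the other neurons, and Mc3r in AgRP-like neurons.

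Fitted over the 4 plates with plate as block, Agrp was higher in AgRP-like than in other neurons by 5.63 on the log2 scale (SE 0.12), and Npy by 3.22 (SE 0.11), and the quasi-likelihood test of edgeR gave adjusted p = 1.9e-14 and 1.7e-10. Mc4r had too few counts to be tested, and the other 5 genes all passed in this comparison, against 15.5% of the 12808 genes tested. The class was cut from these same cells with markers known from Agrp neurons, so the direction for Agrp and Npy follows from the class and only the sizes are described. For neurons as a whole against non-neuronal cells all 5 passed again, with Agrp at 4.51 (SE 0.27) and Npy at 2.12 (SE 0.21), where 57.7% of 15900 genes passed.

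Nearly every AgRP-like cell held both peptides. Agrp was detected in 79 of 83, 58 of 59, 27 of 29 and 23 of 23 AgRP-like cells, and Npy in all 194. Thinned to 1000 transcripts a cell, 69.6% of AgRP-like cells showed Agrp (95% interval 62.6 to 76.0) against 3.59% of other neurons and 4.02% of non-neuronal cells. The last share, from cells that should lack the gene, is the background for this measure. Npy after the same thinning was seen in 97.4% of AgRP-like cells, 51.3% of other neurons and 65.0% of non-neuronal cells, whose median depths before thinning were 30256, 26434 and 6904 transcripts. By that measure the other neurons were no higher in Npy than non-neuronal cells. In 7 AgRP-like cells Agrp was at 0, and the deepest of these had 16502 transcripts.

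Cell by cell, Agrp and Npy varied together within AgRP-like neurons. Pearson's r of their log values was 0.62, 0.61, 0.68 and 0.65, over 83, 59, 29 and 23 cells. Spearman's rho was 0.39, 0.46, 0.35 and 0.58. The cells of a plate share library, depth differences and normalization, and after thinning every cell to 5000 transcripts rho fell to 0.19, 0.23, 0.01 and 0.27, so these are descriptions only. The ratio of Npy to Agrp transcripts in AgRP-like sums was 5.74 (5.50 to 5.99), 5.52 (5.29 to 5.76), 4.67 (4.40 to 4.97) and 4.03 (3.90 to 4.18). The fasted plate had the lowest ratio, and fed plate 3 lay between it and the other fed plates.

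**Figure D2:**
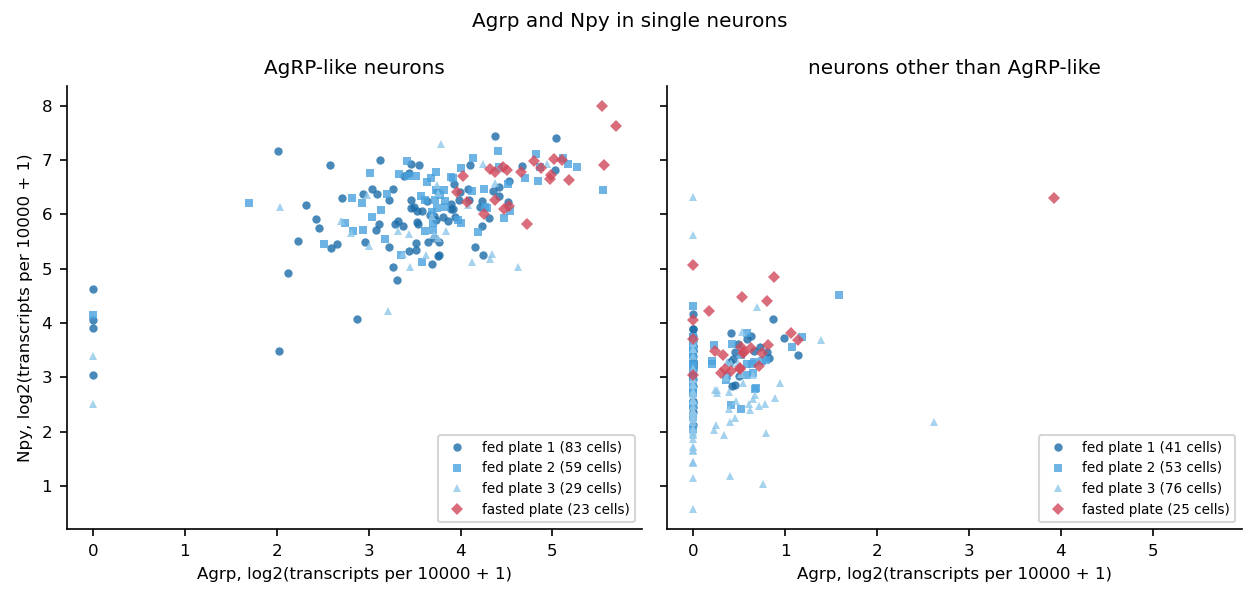
Agrp against Npy in single neurons, both as log2(transcripts per 10000 + 1), with AgRP-like neurons on the left, other neurons on the right and 1 symbol per plate. The 23 fasted AgRP-like cells sit at the upper right of the cloud, and the few AgRP-like cells at 0 Agrp are also low in Npy.

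Pomc and Cartpt were highest in the neurons outside the AgRP-like class. Pomc, the precursor of alpha-MSH and beta-endorphin, lies on chromosome 12 at 3954951 to 3960642 of GRCm38, plus strand (ENSMUSG00000020660). Cartpt lies on chromosome 13 at 99898489 to 99901091, minus strand, with 3 exons in both annotated transcripts (ENSMUSG00000021647). For these peptide genes and Npy the 250 bases upstream of the RefSeq start are shown, since their levels separate the cell classes above. RefSeq's table for GRCm38.p6 gave a window for 4 of the 6 genes. It had no entry for Agrp, and Mc4r was not looked up. The windows are chr6:49822460-49822709 (plus strand) for Npy, chr12:3954695-3954944 (plus strand) for Pomc and chr13:99900684-99900933 (minus strand) for Cartpt, written 5′ to 3′. Capitals mark exact matches, on either strand, to TATAAA, TGACGTCA (the palindromic cAMP response element, which contains the shorter core TGACG) or TAATTA (a homeodomain core).
Npy upstream: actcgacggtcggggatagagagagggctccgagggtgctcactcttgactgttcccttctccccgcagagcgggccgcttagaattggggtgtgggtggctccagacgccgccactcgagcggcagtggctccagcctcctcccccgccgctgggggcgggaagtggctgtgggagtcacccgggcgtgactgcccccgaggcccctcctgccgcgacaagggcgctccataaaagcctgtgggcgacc
Pomc upstream: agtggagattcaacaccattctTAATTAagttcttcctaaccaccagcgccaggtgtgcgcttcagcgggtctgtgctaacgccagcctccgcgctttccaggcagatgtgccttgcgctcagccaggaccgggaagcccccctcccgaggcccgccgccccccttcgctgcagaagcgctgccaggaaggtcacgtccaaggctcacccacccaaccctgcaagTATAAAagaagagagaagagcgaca
Cartpt upstream: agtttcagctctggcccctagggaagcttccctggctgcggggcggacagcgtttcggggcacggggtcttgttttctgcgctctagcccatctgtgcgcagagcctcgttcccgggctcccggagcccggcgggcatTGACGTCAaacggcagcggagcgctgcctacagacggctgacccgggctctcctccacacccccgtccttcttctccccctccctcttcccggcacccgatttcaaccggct
In the Pomc window TATAAA begins 25 bases before the start and TAATTA 228 bases before it. The Cartpt window holds TGACGTCA, 112 bases before the start. Among 32536 upstream windows of the same length, 12.3% hold TATAAA, 1.56% TGACGTCA, 17.9% TGACG and 4.84% TAATTA. The E-box CACGTG (6.04% of windows) and the STAT-type TTCNNNGAA (7.04%) are in none of the 3 sequences, and the Npy window has no match to any of the 6 motifs. A match or its lack is a description of these letters only.

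Pomc in neurons other than AgRP-like stood at 664, 489, 303 and 405 CPM. AgRP-like neurons held 13.1 to 17.6 CPM and non-neuronal cells 11.2 to 16.3 CPM over the plates. These ranges overlapped each other and lay well under every plate of the other neurons. Pomc was thus lower in AgRP-like than in other neurons, at -4.85 on the log2 scale with an SE of 0.17 and edgeR's adjusted p = 3.9e-11.

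A small set of cells carried the Pomc signal. The highest count in any non-neuronal well was 6 transcripts, a limit set after the counts were seen, and 21 of the 195 other neurons exceeded it. Non-neuronal wells are shallower, with a median of 6904 transcripts against 43202 in the 21 cells. Scaled to depth, the highest non-neuronal well had 14.9 Pomc transcripts per 10000, and 14 of the 21 cells, at 4, 4, 3 and 3 by plate, exceeded that too. By plate the 21 cells came to 5, 6, 5 and 5, with 7 to 342 Pomc transcripts and a median of 72. Together the 21 had 82.5% of all Pomc transcripts, and the 14 had 74.1%. Cluster N10, led by Pomc, Fam159b, Cd44 and Prdm12, held 9 of the 21 and stood at 4167 CPM (3953 to 4391). Cluster N12, led by Fbn2, Glipr1 and Prrg1, held 5 and came mostly from the fasted plate, with 5 of its 6 cells from there. The others lay in N3 with 4, N2 with 2 and N4 with 1 cell, and all of these clusters had been built without the 6 genes. Prdm12, which in mice is needed for Pomc expression, had 7, 28, 0 and 0 transcripts in the other neurons as a whole.

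All 21 Pomc-rich cells held Cartpt, at 1 to 561 transcripts with a median of 40. In 15 of them Cartpt exceeded 18 transcripts, the highest count in a non-neuronal well, while in 5 it exceeded the highest share there, 18.3 per 10000. In 8 there was more Cartpt than Pomc. Agrp in the same 21 cells was at most 4 transcripts. Mc3r was seen in 9 of the 21, at up to 4 transcripts.

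Cartpt was also present in many neurons without Pomc. Its level in neurons other than AgRP-like was 2842, 789, 1317 and 796 CPM. In AgRP-like neurons it was 393, 165, 296 and 214 CPM, and in non-neuronal cells 157, 72.4, 180 and 62.9 CPM. Fed plates 1 and 3 were higher than fed plate 2 and the fasted plate in all 3 groups of cells. The log2 difference between AgRP-like and other neurons was -2.26 (SE 0.14, adjusted p = 2.8e-07 by edgeR).

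More than 18 Cartpt transcripts were found in 67 of the 195 other neurons, from 23, 11, 25 and 8 cells of the 4 plates. By the limit of 18.3 per 10000 there were 41 such neurons, at 18, 5, 16 and 2 by plate. Cluster N2, led by Aldoc, Gm20754, Tbx19 and Gpr50, had the highest level at 4419 CPM, with 15 of its 21 cells above 18 transcripts. Cluster N0, led by Ptger3, Itpr2, Cox6a2 and Lepr, stood at 1882 CPM with 18 of 30 cells above 18 transcripts. Among AgRP-like neurons 23 of 194 exceeded the limit of 18 transcripts and 2 the limit scaled to depth, with a highest count of 181. Within AgRP-like cells Npy and Cartpt had r = -0.36 and -0.40 on fed plates 1 and 2 and 0.01 and 0.15 on fed plate 3 and the fasted plate, so no single direction ran through the plates.

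**Figure D3:**
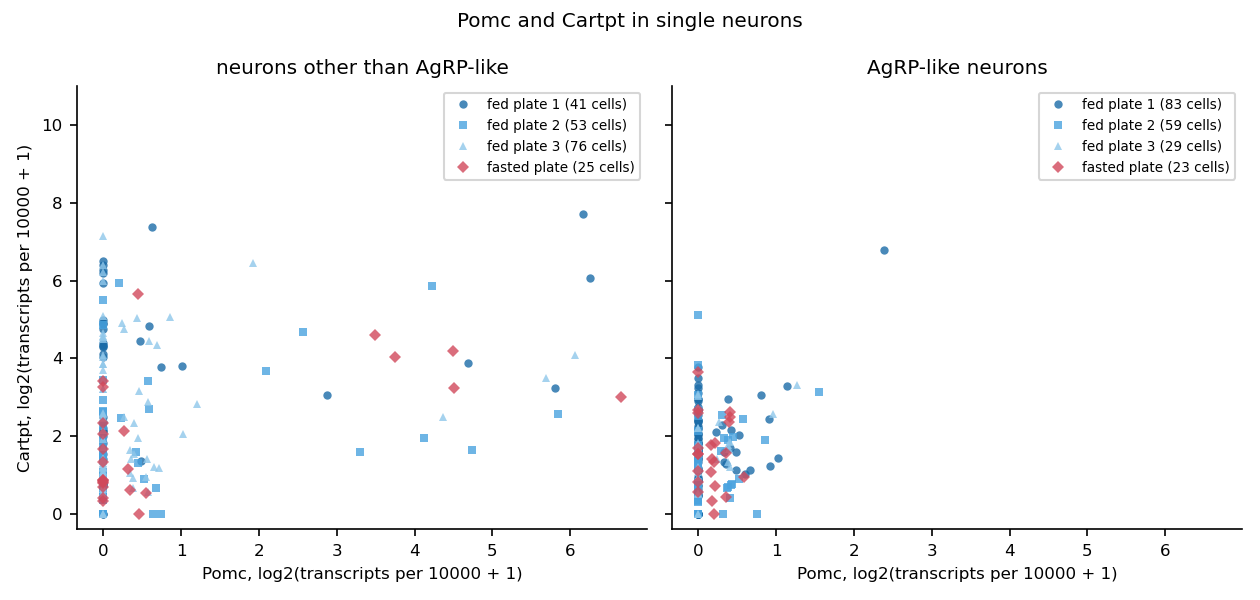
Pomc against Cartpt in single neurons, both as log2(transcripts per 10000 + 1), in neurons other than AgRP-like (left) and AgRP-like neurons (right), with 1 symbol per plate. More than 6 Pomc transcripts occur in 21 of the other neurons, on every plate and always with some Cartpt, while high Cartpt also occurs at or near 0 Pomc.

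The melanocortin receptor genes were far lower than the peptides. Mc3r, a receptor for the melanocortins that AgRP also binds, lies on chromosome 2 at 172248492 to 172251114 of GRCm38 in a single exon (ENSMUSG00000038537). Its level in AgRP-like neurons was 55.9, 52.3, 44.4 and 48.1 CPM. The other neurons held 24.0, 8.54, 13.0 and 7.23 CPM, and non-neuronal cells 1.29 to 3.41 CPM. On every plate the order was AgRP-like, other neurons, non-neuronal, with no overlap between the groups over plates. The difference between AgRP-like and other neurons was 2.02 on the log2 scale (SE 0.24, adjusted p = 1.4e-05 by edgeR), although the classes were cut from the same cells on other genes.

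Per cell these are small numbers, with a median of 1, 1, 1 and 3 Mc3r transcripts in AgRP-like cells. Mc3r was seen in 132 of 194 AgRP-like cells, 44 of 195 other neurons and 15 of 820 non-neuronal cells. Thinned to 5000 transcripts the shares were 23.2, 5.26 and 1.29%, the last again a background share. All 132 AgRP-like cells with Mc3r also held Agrp and Npy. Within AgRP-like cells Agrp and Mc3r had r of 0.10, 0.05, 0.29 and -0.33 over the 4 plates. Among other neurons Mc3r was highest in cluster N6, led by Ghrh, Gal and Scgn, at 44.7 CPM with 5 of 11 cells, and in N3, led by Sytl4, Tmem215 and Glipr1, at 33.9 CPM with 10 of 19 cells.

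Mc4r, the receptor whose loss causes obesity in mice, was at the limit of detection. Only 7 transcripts were counted in all 4 plates, of which 5 lay in 5 different neurons outside the AgRP-like class, 1 in an AgRP-like cell and 1 in an unnamed cell. Non-neuronal cells had 0 of 820 with a transcript, which allows up to 0.366% of such cells to hold a transcript at this depth and sets no limit on how many express the gene. No comparison of Mc4r was possible at this depth.

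Npy, and less so Agrp, was found in wells that held no such neuron. At least 1 Npy transcript was in 203 of 206, 180 of 185, 201 of 214 and 213 of 215 non-neuronal wells. With these wells split by depth into 4 groups of like size, the mean count rose from the shallowest to the deepest group, from 5.24 to 19.1 on fed plate 1, from 3.70 to 11.3 on fed plate 2, from 3.74 to 7.73 on fed plate 3 and from 6.53 to 26.8 on the fasted plate. As a share of the well's transcripts it fell over the same groups, from 1702 to 947, 1614 to 906, 1410 to 609 and 1989 to 1193 CPM. Wells under 1000 transcripts, which were left out, held 5318, 5357, 3005 and 8383 CPM of Npy, or 1.18 to 2.35 transcripts a well. On each plate these shallow wells as a group had a higher Npy share than the shallowest group of kept non-neuronal wells. Below 500 transcripts the share was higher still on fed plates 1 and 2, at 6589 and 6051 CPM, and lower on fed plate 3 and the fasted plate, at 2143 and 7498 CPM.

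The Npy to Agrp ratio of non-neuronal wells and of other neurons was not that of the AgRP-like cells. Non-neuronal wells had 38.8 (29.9 to 51.1), 27.4 (20.5 to 37.5), 21.3 (16.3 to 28.5) and 26.2 (21.9 to 31.7) Npy transcripts per Agrp transcript. None of these counting intervals reached the 4.03 to 5.74 of the AgRP-like sums. Other neurons lay with the non-neuronal wells, at 34.9, 35.2, 16.1 and 24.7. Wells under 1000 transcripts had 20.3, 43.0, 12.8 and 21.5, from 3 to 6 Agrp transcripts a plate. Their interval on fed plate 3, 5.63 to 36.1, reached into the AgRP-like range. Few of the wells outside the AgRP-like class came near AgRP-like levels per cell. At or above the lower quartile of AgRP-like Npy per 10000 transcripts there were 1, 1, 7 and 0 non-neuronal wells and 0, 0, 2 and 0 other neurons on the 4 plates. Among the 70 unnamed wells there were 3, 4, 0 and 0.

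On fed plate 3 the Npy in non-neuronal wells followed what the wells of the same number held on the other fed plates. The 33 non-neuronal wells of fed plate 3 whose number held an AgRP-like cell on fed plate 2 had 1569 CPM of Npy (1416 to 1739), and the other 181 had 651 CPM (607 to 699). For fed plate 1 the levels were 1234 CPM in 42 wells and 679 CPM in 172. Across the 214 wells, r between the Npy counts was 0.59 with fed plate 2 and 0.48 with fed plate 1, at 2.97 and 3.03 transcripts in fed plate 3 for each 100 in the other. The 141 wells clear of AgRP-like cells on any other plate had 523 CPM (477 to 572), against 1278 CPM (1185 to 1377) in the other 73. Agrp showed the same order, with 23.8 and 61.2 CPM. On the other plates the differences were smaller and ran both ways. Over all other plates at once, wells with and without such a cell had 1025 and 1083 CPM on fed plate 1, 1179 and 1037 CPM on fed plate 2 and 1401 and 1362 CPM on the fasted plate. In single pairs, fed plate 2 had 1247 CPM (1120 to 1380) opposite the AgRP-like cells of fed plate 1 and 1032 CPM (967 to 1101) elsewhere. The fasted plate had 1552 CPM (1429 to 1682) opposite those of fed plate 2 and 1343 CPM (1292 to 1395) elsewhere. Opposite fed plate 3 the order was the reverse, at 846 against 1102 CPM on fed plate 2 and 1176 against 1399 CPM on the fasted plate. Wells of the same number carry the same barcode, and per the labels several plates were combined for sequencing. Their part in these values was not tested.

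**Figure D4:**
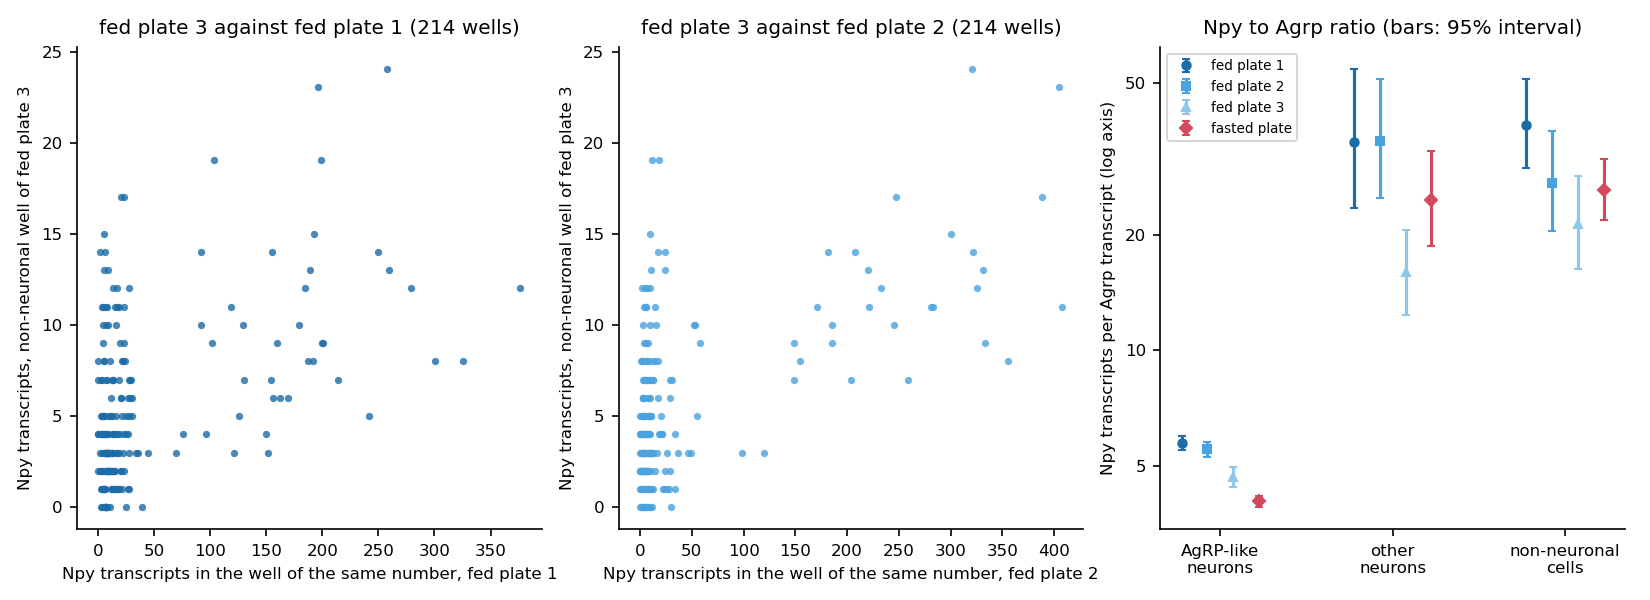
Npy transcripts in the 214 non-neuronal wells of fed plate 3 against the well of the same number on fed plate 1 (left) and fed plate 2 (middle), and Npy transcripts per Agrp transcript by cell group and plate with 95% counting intervals on a log axis (right). No well of fed plate 3 opposite more than 100 Npy transcripts is at 0, and the ratio is 4.03 to 5.74 in AgRP-like neurons and 16.1 to 38.8 in the other neurons and the non-neuronal cells as a whole.

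Fed and fasted plates were compared on sums over cells, so less RNA per cell and fewer cells in a state cannot be told apart in them. With 3 fed plates and 1 fasted plate, feeding state and plate cannot be told apart either, and the spread comes from the fed plates alone. In AgRP-like neurons, Agrp at 2532 CPM on the fasted plate was above all 3 fed plates, whose mean was 1303 ± 166 CPM (SD, n = 3). The log2 difference was 0.99 with an SE of 0.23, or 1.99-fold, and edgeR gave an adjusted p = 0.00582. It was the 1 called gene among the 5 of the 6 that were tested, in a comparison where 5.04% of 13101 genes passed, 408 of them higher and 252 lower. Npy at 10216 CPM was likewise above the fed mean of 6913 ± 1106 CPM, and the groups did not overlap, but its difference of 0.59 did not pass (SE 0.26, adjusted p = 0.205 by edgeR). An exact permutation of 3 plates against 1 cannot go below a one-sided p of 0.25.

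Per cell, the median AgRP-like cell held 30, 35, 41 and 162 Agrp transcripts. For Npy the medians were 176, 216, 179 and 672. The lowest Agrp count of a fasted AgRP-like cell was 66 transcripts, more than the median of any fed plate. AgRP-like cells of the fasted plate were also deeper in all transcripts and in spike-ins, so the counts were set against the spike-ins too. On that scale Agrp was at 10.8, 11.3, 11.2 and 24.5 transcripts per 1000 spike-in transcripts, and Npy at 61.8, 62.5, 52.2 and 99.0.

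**Figure D5:**
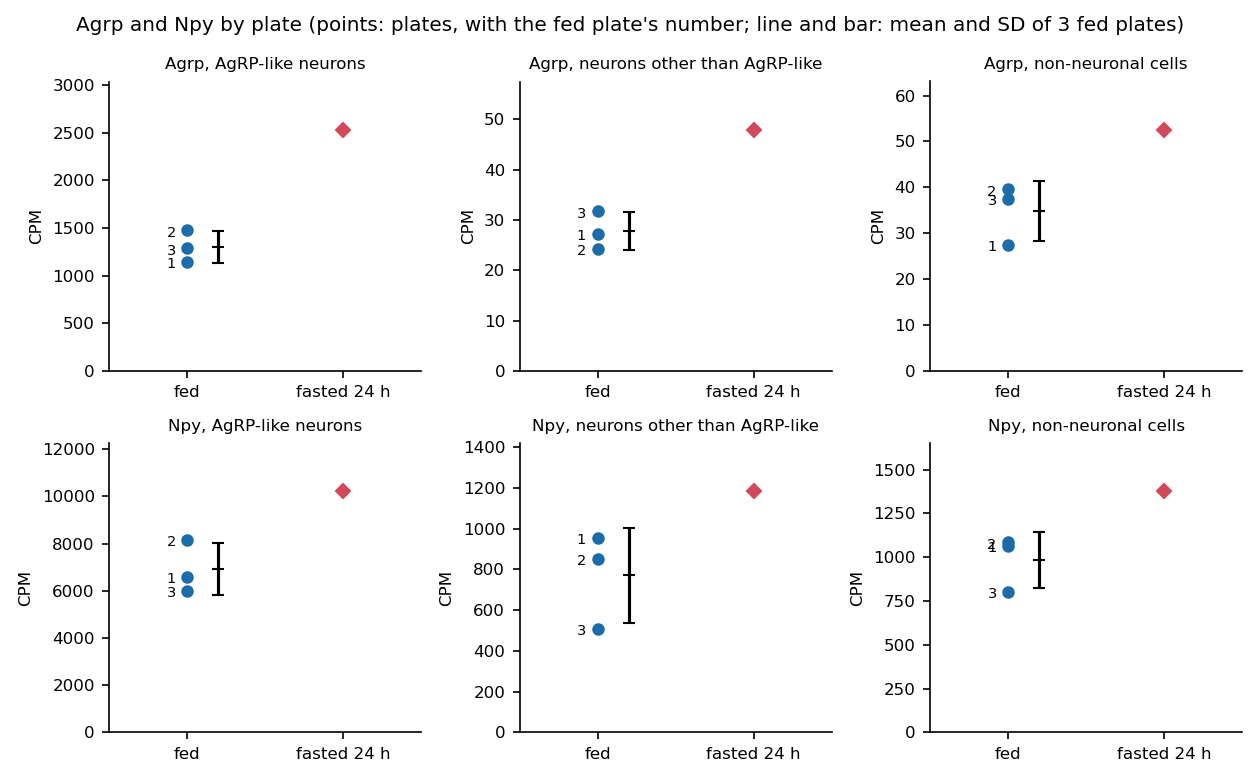
Agrp (upper panels) and Npy (lower panels) in CPM, on axes from 0, in AgRP-like neurons, other neurons and non-neuronal cells, with fed plates as numbered circles, their mean and SD as a bar and the fasted plate as a diamond. The fasted plate is above all 3 fed plates in each panel, at 2532 against 1147 to 1477 CPM for Agrp in AgRP-like neurons.

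The Agrp call held in 11 of 14 alternatives, with differences from 0.68 to 1.09. It was lost without fed plate 2 (1.09, adjusted p = 0.0818 by edgeR), in Xist-only cells (1.07, adjusted p = 0.210) and in wells with no AgRP-like cell of the same number on another plate (0.68, adjusted p = 0.150). Of the 23 fasted AgRP-like cells 22 were Xist-only, against 7 of 83, 40 of 59 and 6 of 29 on the fed plates. On fed plates 2 and 3 the comparison of sexes rested on 40 and 6 Xist-only cells and 11 and 14 with Y-linked transcripts only. Agrp there stood at 1439 and 1483 CPM in Xist-only cells and at 1650 and 1326 CPM in cells with Y-linked transcripts only. Npy stood at 8265 and 7541 CPM in the Xist-only cells and at 7806 and 4762 CPM in the others, a difference of 0.38 (SE 0.12, unadjusted p = 0.00983 and adjusted p = 0.973 by edgeR). Cartpt was at 174 and 439 CPM against 100.4 and 198 CPM, a difference of 1.00 (SE 0.21, unadjusted p = 0.000637 and adjusted p = 0.393). Fed plate 1 was not in that test, and its 7 Xist-only cells had less of these 3 genes than the 66 with Y-linked transcripts only. Agrp was at 777 against 1197 CPM, Npy at 4124 against 6906 CPM and Cartpt at 290 against 389 CPM. In Xist-only cells alone, Npy differed between fed and fasted plates by 0.65 (SE 0.38, adjusted p = 0.787 by edgeR). Fasted wells whose number held an AgRP-like cell elsewhere had 3070 CPM of Agrp, and those clear of one had 2119 CPM, both above the 1156, 1435 and 1474 CPM of the clear fed wells.

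The fasted plate also had the highest Agrp and Npy in the other cells. In non-neuronal cells, Agrp was 0.59 higher on the fasted plate (SE 0.32) and Npy 0.45 (SE 0.57), and in the other neurons 0.79 (SE 0.31) and 0.63 (SE 0.33), none of them past the threshold. The test of the difference itself, AgRP-like against other neurons, gave 0.22 for Agrp (SE 0.26, adjusted p = 0.809 by edgeR) and -0.06 for Npy (SE 0.25, adjusted p = 0.964). None of the 5 tested genes passed there, where 1.06% of 13722 genes did. The fasted plate also had the highest Npy in wells under 1000 transcripts, and the part of RNA from outside the cell in these values was not tested.

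Pomc, Cartpt and Mc3r did not pass the test between fed and fasted plates in any group of cells where they were tested. Mc3r had too few counts to be tested in non-neuronal cells. In AgRP-like neurons the differences were 0.12 for Pomc (SE 0.42), -0.38 for Cartpt (SE 0.58) and -0.07 for Mc3r (SE 0.27). In the other neurons, where Pomc and Cartpt are made, they were -0.24 for Pomc (SE 0.39), -1.04 for Cartpt (SE 0.80) and -0.98 for Mc3r (SE 0.68), with adjusted p = 0.853, 0.709 and 0.650 by edgeR. No tested gene of the 6 passed there, against 0.143% of 12602 genes, nor in all neurons, against 0.258% of 15097. In all neurons Agrp differed by 1.17 (adjusted p = 0.311 by edgeR), and without fed plate 1 by 1.32 (adjusted p = 0.00101). Over non-neuronal cells and over all kept cells edgeR called 0% of 15241 and of 18241 genes, with 658 and 1500 genes at an unadjusted p under 0.05 and 10 and 79 calls by DESeq2. For Cartpt in other neurons the fasted plate at 796 CPM was next to fed plate 2 at 789 CPM, so the groups were not apart. For Pomc in other neurons the fasted plate lay within the fed range. Below that range it lay in all neurons (174 against 209 to 230 CPM), all kept cells (98.4 CPM against a fed mean of 144 ± 20.9, SD, n = 3) and non-neuronal cells (11.2 against 14.3 to 16.3 CPM). A fasted well with 207 Pomc transcripts had been left out for its mitochondrial share. Left-out wells held 30.1% of the fasted plate's Pomc transcripts. The Pomc levels and tests in all neurons and all kept cells therefore rest on that filter. Over all kept cells 2 single alternatives called a difference, for Pomc without fed plate 1 (-0.62, adjusted p = 0.0107 by edgeR) and for Cartpt with no low-count filter (-1.14, adjusted p = 0.0055).

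The other genes of the pathway were taken as 5 lists with 44 genes. In AgRP-like neurons 32 were tested between fed and fasted plates and 3 passed, 2 higher and 1 lower, against 5.04% of all genes, with a median difference of -0.05 against -0.02 over all genes. Both risers process peptides. Pcsk1, which cuts prohormones such as Pomc, was at 85.4, 86.5, 80.4 and 140 CPM after TMM scaling, a difference of 0.74 (SE 0.21, adjusted p = 0.0324 by edgeR). Pam, which amidates peptides such as NPY and alpha-MSH, was at 280, 381, 348 and 552 CPM, a difference of 0.72 (SE 0.21, adjusted p = 0.0408). Mrap2, an accessory protein of melanocortin receptors, was lower, at 46.9, 36.2, 49.8 and 18.2 CPM, a difference of -1.27 (SE 0.34, adjusted p = 0.0234).

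In each of these genes the fasted plate lay outside the fed range. The calls were less firm than the levels. Pcsk1 passed in 8 of 14 alternatives, Pam in 7 and Mrap2 in 10. Without fed plate 2, Pcsk1 and Pam had adjusted p = 0.116 and 0.141 by edgeR, and Mrap2 thinned to 5000 transcripts turned to 0.57. Against the other neurons both risers stood apart, with a test of the difference of 1.38 for Pcsk1 (SE 0.31, adjusted p = 0.0295) and 1.02 for Pam (SE 0.20, adjusted p = 0.00937). That test passed in 6 of 8 alternatives for Pcsk1 and 7 of 8 for Pam, and DESeq2 called neither, with adjusted p = 0.850 and 0.212. In other neurons Pcsk1 stood at 117, 74.5, 63.1 and 53.8 CPM. In all neurons 1 of 36 tested pathway genes passed, Nhlh2, a transcription factor of Pcsk1 and Mc4r regulation in mice, with 58, 65, 63 and 8 transcripts (-2.75, SE 0.41, adjusted p = 0.0431 by edgeR), where 0.258% of all genes passed. This call held in 8 of 14 alternatives and was lost, among others, when cells were thinned to 5000 transcripts (-1.05, adjusted p = 0.803 by edgeR). Most Nhlh2 transcripts lay in neurons other than AgRP-like, at 56, 62, 62 and 8. In those neurons alone none of the tested pathway genes passed between fed and fasted plates.

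Between AgRP-like and other neurons, 15 of 33 tested pathway genes differed, 9 higher and 6 lower, against 15.5% of all genes, with a median of -0.03 against 0.00 over all genes. Among the 13 tested regulators of the peptide genes, 7 were higher and 3 lower in AgRP-like neurons. Bsx, a homeobox factor that in mice is needed for normal Agrp and Npy expression, reached 65.2, 71.3, 51.5 and 44.9 CPM in the AgRP-like class against 16.1, 7.73, 12.7 and 9.89 CPM in the others (2.33, SE 0.22). Otp, a homeobox factor of hypothalamic neurons, was at 509 to 703 CPM against 9.67 to 76.4 CPM (4.10, adjusted p = 0.0279 by edgeR), with the call lost without fed plate 2 (0.0823) or fed plate 3 (0.116). Lower in AgRP-like neurons were Nkx2-1 (-3.47), Nhlh2 (-5.18) and Prdm12 (-5.00), the last from few transcripts and not called by DESeq2.

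Of the NPY receptors, the genes moved in opposite directions. Npy2r, the receptor through which NPY neurons are restrained by their own transmitter and by PYY, stood at 419, 406, 316 and 306 CPM in AgRP-like neurons and 59.1 to 71.2 CPM in other neurons, a difference of 2.41. Npy1r, a main postsynaptic receptor for NPY, stood at 12.2 to 21.8 CPM against 47.8 to 83.8 CPM, a difference of -1.89. Both held on all 4 plates with no overlap. Bdnf, a growth factor acting downstream of Mc4r in mice, had 0 to 1 transcript per plate in AgRP-like neurons and 15 to 59 in the others. Atrnl1, a relative of the Agouti accessory protein attractin, differed by -2.35, and Pcsk1n, which encodes an inhibitor of the Pcsk1 convertase, by 1.38. Between neurons and non-neuronal cells 26 of 35 tested pathway genes differed, 18 higher and 8 lower, against 57.7% of all genes, with all 3 tested NPY receptors higher in neurons and Npy5r at 20.6 to 33.6 CPM against at most 1.93 CPM.

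Over 32 sums of cells from 12 classes and 12270 genes, the gene whose levels were most like those of Agrp was Npy, with r = 0.93 on the log2(CPM + 1) scale. Otp (0.80), Ghr (0.78), Cited1 (0.76) and Corin (0.74) followed, of which Ghr, Cited1 and Corin helped to define the AgRP-like class. For Npy the order after Agrp was Corin, Otp, Acvr1c and Cited1, from 0.77 to 0.71. Pomc was nearest to 5330417C22Rik (0.74) and Cartpt to Zcchc12 (0.83), while Mc3r was nearest to Dnm1 (0.78). The sums of a plate share library and depth, and several of the nearest genes are neuronal, so these values describe the order of likeness only.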

How the data were processed

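The deposited tables hold expected counts: per the file headers and values, UMIs per gene and well of CEL-seq2 libraries, corrected by the authors for UMI collisions, with no normalization or well filter. The correction raised the highest Npy count of a well from 1067 to 1236. The submitters' processing notes name Trim Galore, STAR and the build mm10. The sources used here do not give the UMI counter or annotation release. Counting is per 3′ tag, so levels are not scaled by length. No doublet caller was run, since 1 cell was sorted per well. Gene positions are from GENCODE, upstream bases from RefSeq.

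Wells with under 1000 transcripts outside spike-ins and mitochondrial genes, or a mitochondrial share of 30% or more, were left out (238 and 19 of 1536). Cells were clustered with scanpy 1.11.5 (2000 variable genes, 30 components, 10 neighbours, Leiden resolution 1.5) into 25 clusters, and neurons other than AgRP-like again into 15. The 6 genes, the pathway genes, Y-chromosome genes, Xist and Tsix were left out of the clustering. A cluster was named when at least 3 markers of a set rose by a log2 fold of 1 and were seen in 25% of its cells. That set also had to have the highest share of its markers met. No other set could have more genes among the cluster's 10 leading genes. A cluster not named AgRP-like or non-neuronal counted as other neurons at 40 or more neuron marker transcripts per 10000. The AgRP-like clusters, at 34.1 to 38.2, were under that limit and count as neurons by their marker set.

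CPM are shares of summed transcripts. Sums per plate were rounded and compared with edgeR 4.0.16 (quasi-likelihood test, filterByExpr, TMM scaling), with Benjamini-Hochberg adjustment over all genes tested at 0.05. Fits of fed against fasted plates have 2 residual degrees of freedom and assume that the fasted plate varies as the fed ones do. Class comparisons had plate as block. The fit was tested on simulated counts with a fixed spread and no plate or sex differences, so that test does not cover such differences. Intervals are exact at 95% and, like floors of 3 counts, cover counting error only. Alternatives were DESeq2 1.42.0, library totals, no low-count filter, other well and mitochondrial limits, observed UMIs, Xist-only cells, thinning, other resolutions, leaving out each plate, wells clear of AgRP-like cells elsewhere, and limits for Pomc-rich and Cartpt-rich cells scaled to depth. The last 2 were chosen after seeing the data. Pathway genes were named when they passed the threshold, up to 10 by size per comparison.

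The members and lists were chosen with earlier results of these data known. Replicate numbers follow accession order and pair nothing.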

Additional observations from a re-analysis of the deposited data

Results flagged for a closer look

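Between AgRP-like and other neurons the change from fed to fasted plates differed for 2 genes of peptide processing. The test of the difference gave 1.38 on the log2 scale for Pcsk1 (SE 0.31) and 1.02 for Pam (SE 0.20), with adjusted p = 0.0295 and 0.00937 by edgeR. The call held in 6 of 8 alternatives for Pcsk1 and in 7 of 8 for Pam. DESeq2 called neither, with adjusted p = 0.850 and 0.212. In plate order, Pam stood at 284, 386, 353 and 565 CPM in AgRP-like neurons and at 520, 516, 685 and 469 CPM in the others.

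A signal also appeared in wells outside the comparisons. One well of the fasted plate, left out because 37.9% of its transcripts were mitochondrial, held 207 Pomc and 44 Cartpt transcripts among 14412. The highest Pomc count in a left-out well of the fed plates was 1. Left-out wells held 30.1% of all Pomc transcripts of the fasted plate. Its Pomc levels in other neurons, all neurons and all kept cells therefore rest on the filter.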

How the results depend on the processing

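Of 520 values of single genes that passed the threshold, 471 kept direction and call under an alternative, 48 kept the direction only and 1 turned. The last was Mrap2 in AgRP-like neurons, at 0.57 when thinned to 5000 transcripts. Among values that had not passed, the fasted minus fed difference turned for Pomc in AgRP-like neurons (-0.37 in clear wells, -0.0066 without fed plate 2) and Mc3r there (-0.15 to 0.0099 without 1 fed plate). In Xist-only cells it turned for Pomc and Mc3r in all neurons (0.27 and 0.26) and in other neurons (0.76 and 0.24). Without 1 fed plate it ran from -0.32 to 0.22 for Mc3r in all neurons and from -0.50 to 0.052 for Pomc in other neurons. For Npy the fasted minus fed difference of AgRP-like neurons less that of other neurons turned in wells of at least 2000 transcripts (0.036). It ran from -0.26 to 0.11 without 1 fed plate. Without fed plate 2 Cartpt passed in that comparison (0.67, adjusted p = 0.0066 by edgeR), and without fed plate 1 Npy passed in non-neuronal cells (0.59, adjusted p = 0.0405). Agrp passed with no low-count filter in all neurons and in all kept cells (1.16 and 0.87). The causes were not tested.

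Counts of called genes between fed and fasted plates moved most. In AgRP-like neurons they were 660, but 180 by DESeq2, 57 in Xist-only cells, 79 when thinned and 308 in clear wells, and 494 to 939 when 1 fed plate was left out. In all neurons 39 became 60 by DESeq2, 24 with library totals, 392 with no low-count filter, 5 in Xist-only cells, 6 when thinned, 16 in clear wells and 70 to 1143 without 1 fed plate, most without fed plate 1. In other neurons 18 became 176 with no filter, 8 when thinned, 4 in clear wells and 44 to 326 without 1 fed plate. In all kept cells 0 became 79 by DESeq2, 513 with no filter, 47 in Xist-only cells and 0 to 1919 without 1 fed plate, and in non-neuronal cells 10, 216, 72 and 0 to 1827. The test of whether the fasted minus fed difference itself differs between AgRP-like and other neurons called 146 genes. It called 18 by DESeq2, 241 with no filter and 188 to 381 without 1 fed plate. AgRP-like against other neurons called 1989, or 1269 by DESeq2 and 1297 to 2119 without 1 plate.

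Shares of cells with a transcript depend on depth. Thinned to 5000 rather than 1000 transcripts, or unthinned with at least 2, Agrp was seen in 98.4 and 95.9% of AgRP-like cells, Npy in 100 and 99.5%, Mc3r in 23.2 and 43.8%, and Cartpt in 68.4 and 80.5% of other neurons. The correlation of Agrp and Npy, as a rank correlation after thinning, was 0.19, 0.23, 0.011 and 0.27. Npy in the emptiest wells of fed plate 3 was 2143 CPM under 500 transcripts, and in its clear non-neuronal wells 523 CPM. No paired analysis was possible because replicate numbers were given in accession order and the fasted group has 1 plate. The fasted plate could not be left out of fed against fasted fits, nor either plate out of the comparison of sexes. The small number of fasted cells and the single fasted plate limit every difference by feeding state, and depth limits Mc3r and Mc4r.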
